A study of Mus musculus with 53 samples.

Results

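Mouse T-cell tumours carrying both a Tal1 and an LMO2 transgene (Tal1-LMO2, 3 arrays) were set against tumours carrying the Tal1 transgene alone (Tal1, 2 arrays). The members were chosen by the genotype in the labels, which gave 5 of the 53 samples of the series. The other 48 samples come from 13 further lymphoma-prone genetic backgrounds and serve here as a range of levels and as part of the estimate of spread. Each sample is total RNA of T-cell lymphoblasts on 1 oligonucleotide array. Both groups are of the C57BL/6 strain, are described as TLX1 negative lymphoma and had no treatment. The Tal1 transgene is shared by both groups, so the comparison asks what accompanies the added LMO2 transgene. The labels name neither the promoter that drives each transgene nor the age of the mice, and they do not say whether the samples of a group came from separate animals. The p-values therefore cover the spread among these arrays alone, possibly a technical one, and the small number of arrays limits the precision.

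TAL1 is a basic helix-loop-helix transcription factor of blood stem cells and red cell precursors that is silent in most thymocytes and is switched on in many human T-cell leukaemias. It binds DNA as a partner of E proteins such as E2A (Tcf3), HEB (Tcf12) and E2-2 (Tcf4). LMO2 binds no DNA itself: it bridges TAL1 or the related LYL1, the adaptor LDB1 and GATA factors in 1 complex. Signalling through the receptor Notch1, which switches on genes such as Hes1, Dtx1 and Myc, is required by early thymocytes and is active in many T-cell leukaemias.

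Levels are log2 of the deposited linear signal, and differences are Tal1-LMO2 minus Tal1 on that scale, with their SE. The median of the 22690 probe sets of an array lay between 450 and 460 linear units in Tal1-LMO2 tumours and between 473 and 481 in Tal1 tumours, within the span of 377 to 590 of the other 48. The beta-actin 3′ to 5′ ratio, a sign of RNA integrity in which higher means more loss of 5′ signal, was 0.27, 0.40 and 0.27 on the log2 scale in Tal1-LMO2 tumours and 1.08 and 0.57 in Tal1 tumours. The groups did not overlap in it, and a two-sided exact permutation test gave p = 0.1, the smallest that 3 against 2 arrays allow. The hybridization control probe sets averaged 12.50, 12.42 and 12.16 in Tal1-LMO2 tumours and 12.72 and 12.77 in Tal1 tumours (exact p = 0.1). The other 48 arrays ran from 9.19 to 12.73 with a median of 10.95. All 5 compared arrays thus lay in the upper part of the series, as did the E2A and Rag E2A knockout arrays (12.27 to 12.73). In Tal1-LMO2 replicate 2, 2 of the 45 bacterial control probe sets were above all other 52 arrays, so the gene calls are repeated without that array. Over the 7206 genes tested, the 2 arrays closest to each other were Tal1-LMO2 replicate 2 and Tal1 replicate 2, with a median absolute difference of 0.166. Pairs within Tal1-LMO2 differed by 0.173 to 0.193 and the Tal1 pair by 0.211.

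The T-cell identity of both groups was checked first. Cd3e, a chain of the CD3 complex of the T-cell receptor, measured 12.64, 12.69 and 12.47 in Tal1-LMO2 tumours and 12.30 and 12.26 in Tal1 tumours. Thy1, a thymocyte surface protein, measured 13.07, 12.21 and 13.16 in Tal1-LMO2 tumours and 12.74 and 12.53 in Tal1 tumours. Both genes were high in all 5 arrays, but they are only part of a list of 18 T-lineage markers. The mean of all 18 was 11.37, 11.31 and 11.55 in Tal1-LMO2 tumours and 10.68 and 11.04 in Tal1 tumours. Cd2 and Cd7, also on that list, lay below the array median in Tal1 replicate 1. The recombinase gene Rag1 stood at 12.38, 12.09 and 12.10 in Tal1-LMO2 tumours and 12.11 and 11.97 in Tal1 tumours, and Cd8a at 11.67, 11.61 and 11.72 in Tal1-LMO2 tumours and 11.34 and 11.86 in Tal1 tumours.

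The transgenes themselves left no visible excess on the mouse probe sets. The Lmo2 probe set measured 7.93, 7.77 and 7.87 in Tal1-LMO2 tumours and 8.63 and 8.48 in Tal1 tumours, so the double transgenic arrays were the lower ones. The difference was −0.70 ± 0.53 and did not pass the test (limma, adjusted p = 0.906 over 20380 probe sets). The other 48 arrays ran from 7.75 through a median of 8.83 up to 11.71. The Tal1 probe set measured 8.21, 7.67 and 7.89 in Tal1-LMO2 tumours and 8.01 and 7.99 in Tal1 tumours (difference −0.08 ± 0.18, adjusted p = 0.995). Both probe sets lie below the median of the arrays in all 5 samples. A mouse probe set need not register a transgene of another species or a construct without its target stretch, so these values do not check the labels.

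Between the groups, 3 genes were higher and 33 were lower in Tal1-LMO2 tumours at an adjusted p under 0.05, which is 0.0416% and 0.458% of the 7206 genes tested. Of these, 3 higher and 24 lower genes differed by at least 2-fold. At an unadjusted p under 0.05, 166 genes were higher and 290 lower (2.3% and 4.02%). That lean depends on how the arrays are scaled. With arrays centred on their median, 264 genes were higher and 204 lower at this threshold, and the median difference was 0.04. At an adjusted p under 0.05 that scaling gave 4 higher and 23 lower genes. Without that centring, the median difference of all tested genes was −0.03. The groups did not overlap in any of the 33 lower genes, beside 1136 genes (15.8%) that lay wholly below Tal1 over all genes tested and 723 (10%) that lay wholly above. Of the 33 lower genes, 20 passed the filter on low values (above the array median on at least 2 of the 5 arrays) through the Tal1 arrays alone, so that they had to differ. With no filter, 35 of 12393 genes were lower (0.282%) and 24 of the 33 were among the genes still called.

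**Figure D1:**
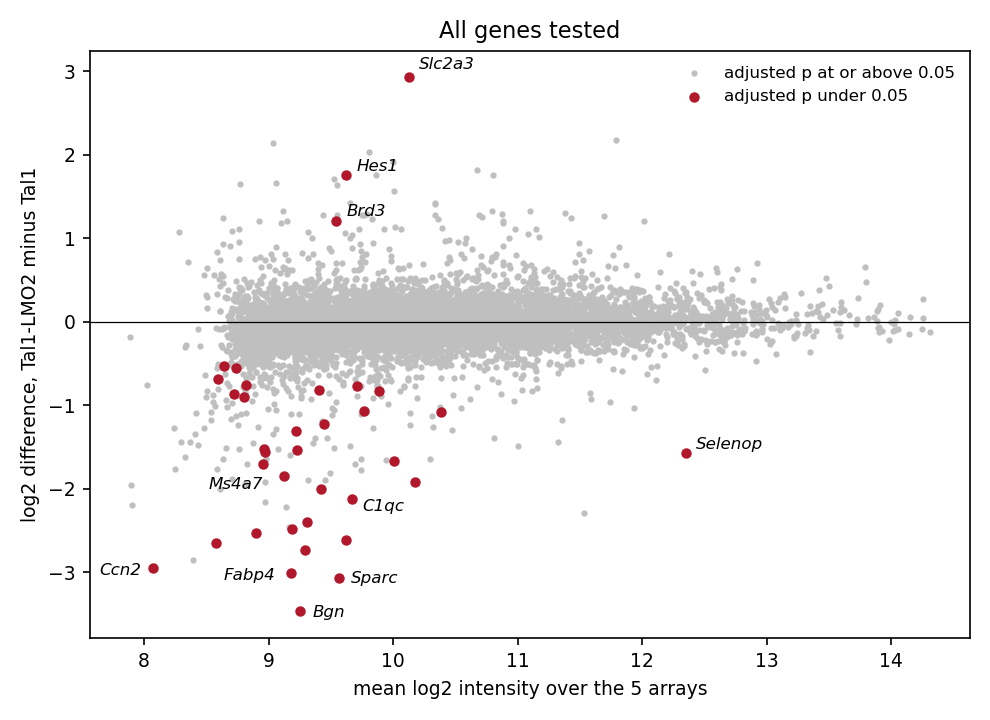
Log2 difference (Tal1-LMO2 minus Tal1, vertical axis) against mean log2 intensity over the 5 arrays (horizontal axis) for the 7206 genes tested; each point is 1 gene and red marks an adjusted p under 0.05. The 33 red points below 0 outnumber the 3 above it, and most of them lie at low mean intensity.

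Among the 12 largest falls, Sparc, Col3a1 and Dcn are members of the stromal marker list and C1qc of the myeloid one; the other 8 are on no list. The largest was that of Bgn. This gene, which encodes the matrix proteoglycan biglycan, measured 7.74, 8.28 and 7.58 in Tal1-LMO2 tumours, against 11.39 and 11.28 in Tal1 tumours. All 3 double transgenic arrays were more than 2 log2 units under both single transgenic ones, and the difference was −3.46 ± 0.52 (11.0-fold lower, adjusted p = 0.000268). Its other 2 probe sets differed by −1.67 and −1.83. The other 48 arrays had a median of 11.06 and a lowest value of 8.03, so the Tal1 tumours sat near the middle of the series and 2 of the 3 Tal1-LMO2 tumours under its low end.

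Sparc, a secreted protein that binds collagen, measured 8.14, 8.80 and 8.07 in Tal1-LMO2 tumours and 11.72 and 11.09 in Tal1 tumours (−3.07 ± 0.62, adjusted p = 0.0104). Its second probe set gave −3.39. Col3a1, a fibrillar collagen, measured 8.03, 8.72 and 7.85 in Tal1-LMO2 tumours and 11.47 and 10.40 in Tal1 tumours (−2.73 ± 0.67, adjusted p = 0.0438), while its other probe set differed by −0.78. Dcn, the proteoglycan decorin, measured 8.06, 8.54 and 7.98 in Tal1-LMO2 tumours and 10.60 and 10.76 in Tal1 tumours (−2.48 ± 0.55, adjusted p = 0.0166). In each of these 3 matrix genes Tal1-LMO2 replicate 2 was the highest of its group and still lay more than 1.5 log2 units under the lower Tal1 array.

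Ccn2, a matricellular growth factor also known as CTGF, measured 6.93, 6.99 and 6.77 in Tal1-LMO2 tumours and 9.79 and 9.90 in Tal1 tumours (−2.95 ± 0.74, adjusted p = 0.0491). It was the 1 gene among the 33 in which all 3 Tal1-LMO2 arrays lay below the lowest of the other 48, which was 7.15. Over all tested genes 9 did so (0.125%). Fabp4, the fatty acid carrier of adipocytes, macrophages and capillaries, measured 7.93, 8.28 and 7.71 in Tal1-LMO2 tumours and 10.85 and 11.12 in Tal1 tumours (−3.01 ± 0.67, adjusted p = 0.0166). Of its other 3 probe sets, 1 gave −3.32 and 2 gave −0.27 and −0.62.

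Serping1, the inhibitor of the first complement component, fell by 2.64 ± 0.58 (adjusted p = 0.016), with levels of 7.38, 7.82 and 7.37 in Tal1-LMO2 tumours and 10.23 and 10.11 in Tal1 tumours. Mgp, the matrix Gla protein that inhibits calcification, fell by 2.40 ± 0.60 (adjusted p = 0.0491). Igfbp7, a secreted protein that binds insulin-like growth factors, fell by 2.0 ± 0.49 (adjusted p = 0.0438), but its other 2 probe sets differed by −0.16 and 0.00. Mgst1, a microsomal glutathione transferase, fell by 2.53 ± 0.53 (adjusted p = 0.0104), with 0.18 on its other probe set. For Mgst1 and Igfbp7 the choice of the probe set of highest mean therefore decides the value.

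Tsc22d1, a transcriptional regulator induced by TGF-beta, was unlike the matrix genes in how its arrays were ordered. It measured 9.40, 7.87 and 8.47 in Tal1-LMO2 tumours and 10.48 and 11.89 in Tal1 tumours (−2.61 ± 0.63, adjusted p = 0.041). Here Tal1-LMO2 replicate 1 was the highest of its group, and 5 of its 6 probe sets gave differences between −2.61 and −1.42 while the sixth gave −0.16.

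**Figure D2:**
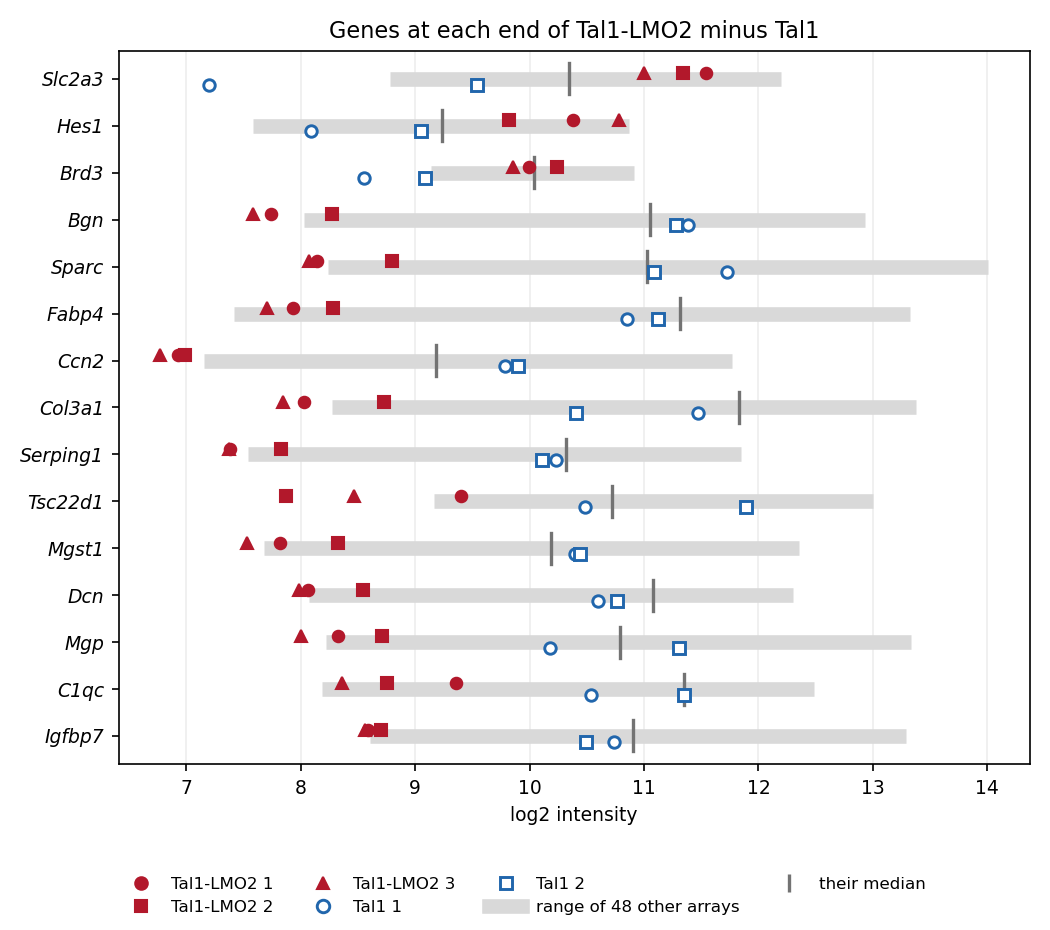
Log2 intensity (horizontal axis) of the 3 higher and the 12 lowest genes in the 3 Tal1-LMO2 arrays (filled red, upper) and the 2 Tal1 arrays (open blue, lower); grey bars span the other 48 arrays and the tick marks their median. For Slc2a3, Hes1 and Brd3 all red symbols lie right of the blue ones, and for the 12 lower genes all lie left of them; in Ccn2 the 3 red symbols lie left of the grey bar.

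Of the myeloid marker list, C1qc, C1qa and Cd68 were among the genes that fell. C1qc, a chain of the complement protein C1q that macrophages make, measured 9.35, 8.75 and 8.36 in Tal1-LMO2 tumours and 10.54 and 11.35 in Tal1 tumours (−2.12 ± 0.40, adjusted p = 0.00797). C1qa, its partner chain, measured 9.84, 9.74 and 8.65 in Tal1-LMO2 tumours and 11.00 and 11.65 in Tal1 tumours (−1.92 ± 0.39, adjusted p = 0.0104). The third chain, C1qb, had −1.81 ± 0.47 with an adjusted p of 0.0578 and did not pass. All 3 chains had negative differences, with no overlap between the groups, as did 15.8% of all tested genes.

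Ms4a7, a membrane protein gene of macrophages, measured 8.36, 8.47 and 8.32 in Tal1-LMO2 tumours and 10.32 and 10.14 in Tal1 tumours (−1.85 ± 0.32, adjusted p = 0.00249). Cd68, a lysosomal protein of macrophages, measured 8.82, 8.81 and 8.21 in Tal1-LMO2 tumours and 9.96 and 10.35 in Tal1 tumours (−1.54 ± 0.39, adjusted p = 0.0491). Tyrobp, the signalling adaptor DAP12 of myeloid and natural killer cells, measured 9.27, 9.76 and 9.01 in Tal1-LMO2 tumours and 11.01 on both Tal1 arrays (−1.66 ± 0.39, adjusted p = 0.0257). Each of these genes lay near the middle of the series in Tal1 tumours and near its low end in Tal1-LMO2 tumours. Ctsh, a lysosomal cysteine protease, fell by 1.70 ± 0.38, and Selenop, the selenium transport protein, by 1.57 ± 0.34. Selenop measured 12.21, 12.20 and 10.75 in Tal1-LMO2 tumours and 13.25 and 13.33 in Tal1 tumours, so replicate 3 stood below the other Tal1-LMO2 arrays.

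The other genes that fell were Npl, Rab34, Fuom, Nlrp6, Ninj1, Rit1, Dpf1, P2ry6, Dbil5, Cyp4b1, Gpr37, Snx22, Rassf8, Mmel1 and St6galnac2, with differences between −1.55 and −0.52. Npl, which breaks down sialic acid, measured 8.14, 8.75 and 8.16 in Tal1-LMO2 tumours and 10.28 and 9.53 in Tal1 tumours, with 9.46 as the highest of the other 48 arrays. For Npl it was thus the Tal1 tumours that stood outside the rest of the series. The same held for Cyp4b1 and Mmel1. In Nlrp6 both Tal1 arrays (10.15 and 10.21) were above the highest of the other 48 arrays (9.59). There Tal1-LMO2 replicate 1 (9.78) was above it as well, unlike replicates 2 and 3 (8.51 and 8.59). Rit1, a small GTPase, measured 9.26, 9.42 and 9.34 in Tal1-LMO2 tumours and 9.49 and 11.32 in Tal1 tumours. Without Tal1 replicate 2 its difference was −0.16, so 1 array carries that call, and its second probe set differed by −0.03. Single Tal1 arrays also decide Dpf1, which had −0.90 with all arrays and −0.49 without Tal1 replicate 2, and Rab34, which had −1.53 with all arrays and −0.97 without Tal1 replicate 1; neither was called then. Over the 33 lower genes, all 3 Tal1-LMO2 arrays lay below the median of the other 48 arrays in 22, and both Tal1 arrays lay above it in 22. Both Tal1 arrays lay above the highest of the other 48 in 4 of the 33, and at least 1 did in 7. The 33 were selected as lower in Tal1-LMO2 tumours, and the shares over all genes tested were not counted, so these counts are descriptive.

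The marker lists of stromal and myeloid cells were read over all their members on the array, since the filter kept some only through the Tal1 tumours. Of the 16 stromal, endothelial and epithelial markers 15 were lower in Tal1-LMO2 tumours, with a median difference of −0.72, where the median of all 12393 genes was −0.05 and 60.8% of them were lower. Their mean level was 8.13, 8.31 and 8.05 in Tal1-LMO2 tumours and 9.28 and 9.21 in Tal1 tumours. Among all 53 arrays, counted from the lowest, the Tal1-LMO2 arrays ranked 2, 5 and 1 and the Tal1 arrays 20 and 17. The summed linear signal of the list was 4840 to 5621 in Tal1-LMO2 tumours and 12456 to 15291 in Tal1 tumours. Of the 9 that passed the filter, 5 did so through the Tal1 arrays alone, and 3 were called lower (Sparc, Col3a1 and Dcn), beside 0.458% of all genes tested. With no filter, Sparc and Dcn were called, beside 0.282% of all 12393 genes. Col1a1 and Col1a2, the chains of type I collagen, had differences of −1.60 ± 0.67 and −1.65 ± 0.69 and did not pass. Cdh5, the cadherin of vessel walls, measured 7.16, 7.13 and 7.20 in Tal1-LMO2 tumours and 8.99 and 8.36 in Tal1 tumours but was below the filter. Foxn1, the regulator of thymic epithelium, measured 7.89, 7.79 and 7.77 in Tal1-LMO2 tumours and 7.90 on both Tal1 arrays, and Pecam1 was the 1 member with a positive difference (0.40). The stromal calls depend on which arrays are used: none remained without Tal1-LMO2 replicate 3, and 1 without Tal1-LMO2 replicate 1. Without Tal1-LMO2 replicate 3 the differences were −2.94 for Sparc, −2.56 for Col3a1 and −2.38 for Dcn. Without Tal1 replicate 1 they were −2.76, −2.20 and −2.57, against −3.07, −2.73 and −2.48 with all arrays.

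Of the 19 myeloid markers 14 were lower, with a median difference of −0.75, where 60.8% of all 12393 genes were lower. Their mean level was 8.96, 8.98 and 8.74 in Tal1-LMO2 tumours and 9.39 and 9.66 in Tal1 tumours, and the ranks among the 53 arrays were 4, 5 and 1 for Tal1-LMO2 and 8 and 14 for Tal1. The summed linear signal was 9612 to 12341 in Tal1-LMO2 tumours and 18494 to 23691 in Tal1 tumours. The filter passed 14 of them, 4 through the Tal1 arrays alone, and 3 were called lower (C1qc, C1qa and Cd68), beside 0.458% of all genes tested. With no filter C1qc and C1qa were called, beside 0.282% of all 12393 genes. No myeloid member was called without Tal1-LMO2 replicate 3 or without Tal1 replicate 2. Csf1r, the receptor that macrophages need to survive, measured 10.42, 10.40 and 10.27 in Tal1-LMO2 tumours and 11.05 and 11.23 in Tal1 tumours (−0.78 ± 0.26, adjusted p = 0.271). Adgre1, an adhesion receptor of macrophages, had −1.10 ± 0.33 (adjusted p = 0.136), and Fcgr3, a receptor for immunoglobulin G, −1.92 ± 0.54 (adjusted p = 0.091). The granulocyte gene S100a8 had 8.40, 8.89 and 8.86 in Tal1-LMO2 tumours and 7.56 and 7.70 in Tal1 tumours, and Elane, a neutrophil protease gene, differed by −0.09 ± 0.37; neither was called.

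In bulk RNA, fewer stromal or myeloid cells and less RNA of these genes per cell cannot be told apart. Low stromal and myeloid levels were also found outside the comparison: the 2 E2A knockout tumours ranked 4 and 3 for the stromal list and 2 and 3 for the myeloid list, and the 2 Rag E2A knockout tumours 8 and 6 for the stromal and 7 and 6 for the myeloid list. The beta-actin ratio was also higher in both Tal1 tumours than in the Tal1-LMO2 ones. It was 0.56 and 0.37 in the 2 E2A knockout tumours and 0.23 and 0.37 in the 2 Rag E2A knockout tumours. In a fit with that ratio added as a term, 31 genes were lower and 2 higher. Of the 33 lower genes 23 kept their call in that fit, and the called members numbered 2 on the stromal list and 4 on the myeloid list, against 3 and 3 without the term. Of the other marker lists, the 13 B-cell markers averaged 8.38, 8.59 and 8.62 in Tal1-LMO2 tumours and 8.51 and 8.65 in Tal1 tumours. None of the 4 B-cell, 5 erythroid and megakaryocyte and 4 MHC class II genes tested was called. Since 0.458% of all genes tested were called lower, counts of 0 among so few do not set these lists apart from the background. On the cytotoxic and innate lymphoid list, 1 of 6 tested genes was called lower (Tyrobp).

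**Figure D3:**
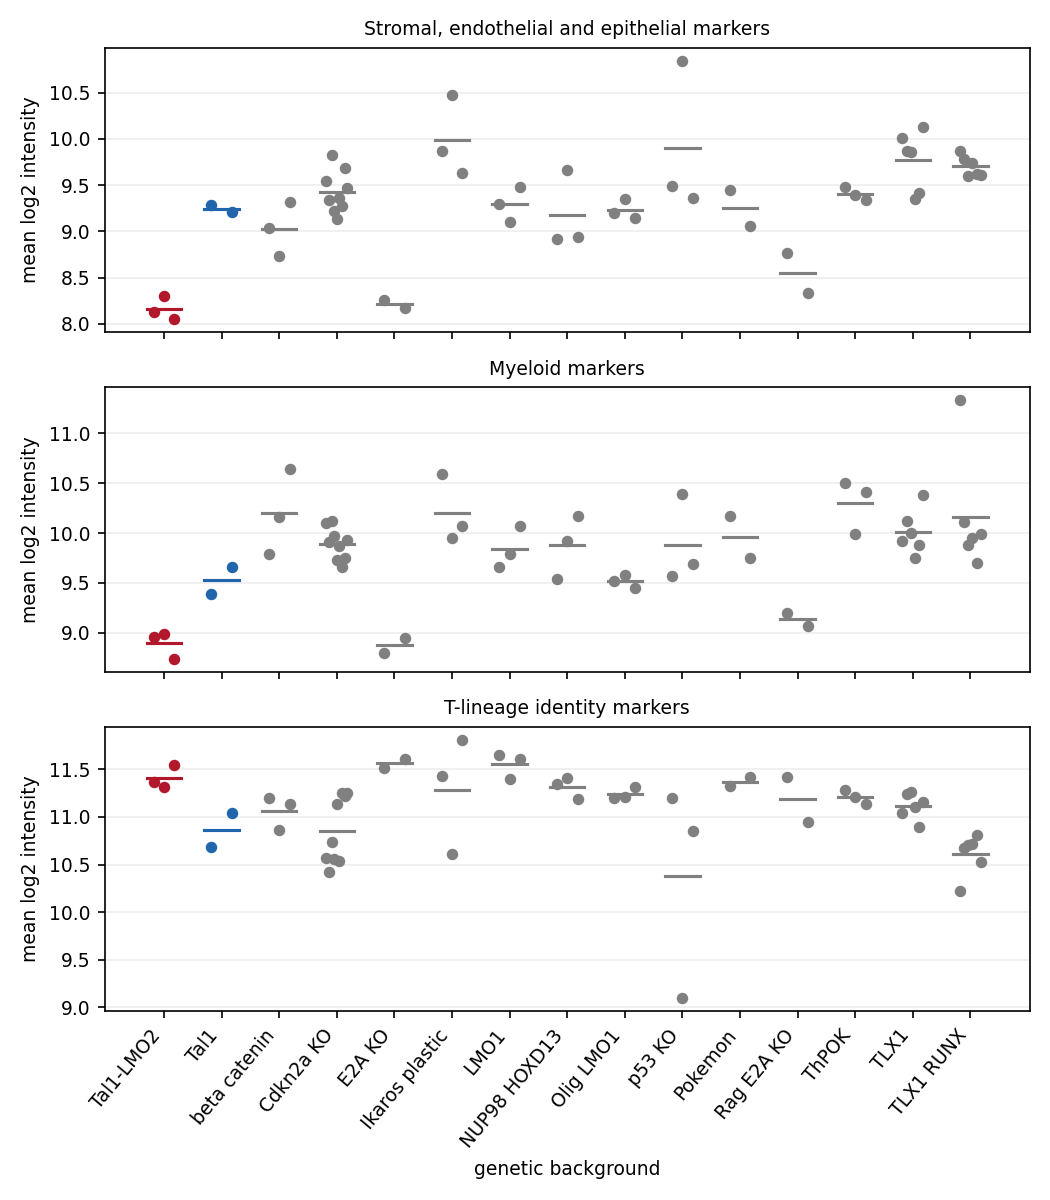
Mean log2 intensity (vertical axes) of all members of the stromal, myeloid and T-lineage marker lists in each of the 53 arrays, by genetic background (horizontal axis); points are arrays and bars are group means. The Tal1-LMO2 arrays (red) lie at 8.05 to 8.31 for stromal markers against 9.21 and 9.28 in Tal1 (blue), and the E2A knockout arrays lie as low.

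T-lineage markers ran the other way without passing the test. All 18 on the array had a positive difference, with a median of 0.44, where 39.2% of all 12393 genes did. Their mean level was 11.37, 11.31 and 11.55 in Tal1-LMO2 tumours and 10.68 and 11.04 in Tal1 tumours, and among the 53 arrays the Tal1-LMO2 tumours ranked 42, 38 and 49 and the Tal1 tumours 10 and 19. None of the 17 that passed the filter was called by limma, and 3 were higher at an unadjusted p under 0.05. Over all genes tested, 0.0416% were called higher and 2.3% were higher at that unadjusted threshold. Without Tal1-LMO2 replicate 2, 15 of these 17 were higher and 2 lower, with a median of 0.43. Cd2, an adhesion receptor of T cells, measured 11.47, 11.02 and 12.03 in Tal1-LMO2 tumours and 8.69 and 10.81 in Tal1 tumours (1.75 ± 0.72, adjusted p = 0.55). Cd7 measured 9.08, 11.15 and 10.11 in Tal1-LMO2 tumours and 8.66 and 9.69 in Tal1 tumours, so its groups overlapped. Cd28, the costimulatory receptor, measured 11.62, 11.35 and 11.09 in Tal1-LMO2 tumours and 9.98 and 10.35 in Tal1 tumours (1.19 ± 0.72, adjusted p = 0.916). Without Tal1 replicate 1, which had the higher beta-actin ratio, the median of the 17 tested members was 0.27, against 0.41 with it. The part of cell makeup and RNA quality in these differences was not tested.

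Of the 3 genes that rose, 1 belongs to the Notch list. Hes1, a transcriptional repressor that Notch induces directly, measured 10.38, 9.82 and 10.79 in Tal1-LMO2 tumours and 8.09 and 9.05 in Tal1 tumours. All 3 double transgenic arrays were above both single transgenic ones, and the difference was 1.76 ± 0.42 (3.38-fold higher, adjusted p = 0.0373). In the other 48 arrays the median was 9.23 and the highest 10.87. Hes1 was the 1 called gene among the 13 Notch receptors and targets that passed the filter, where 0.0416% of all genes tested were called higher. Of these 13, 10 had a positive difference and 3 a negative one, and the median was 0.41; of all 7206 genes tested, 3241 had a positive difference. Among the 13, Tal1-LMO2 lay wholly above Tal1 in 7 genes and wholly below it in 1, beside 10% and 15.8% of all genes.

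Dtx1, a ubiquitin ligase gene that Notch switches on, was the most even of the Notch list: 12.54, 12.43 and 12.53 in Tal1-LMO2 tumours and 11.28 and 11.31 in Tal1 tumours. With the spread within all 15 backgrounds its difference of 1.21 ± 0.93 did not pass (adjusted p = 0.992). The other 48 arrays lay between 7.54 and 13.32. Fitted on the 5 arrays alone, the adjusted p was 0.024. With Tal1-LMO2 replicate 2 left out of that fit, no gene of the Notch list was called. Nrarp, a feedback inhibitor of Notch, measured 9.67, 9.90 and 10.59 in Tal1-LMO2 tumours and 8.88 and 9.23 in Tal1 tumours (1.0 ± 0.71, adjusted p = 0.983). Il2ra, the interleukin-2 receptor alpha chain that marks early thymocytes, measured 10.62, 9.33 and 11.75 in Tal1-LMO2 tumours and 8.66 and 8.94 in Tal1 tumours (1.76 ± 1.02, adjusted p = 0.883). These 3 genes are among the 7 without overlap.

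The receptors showed smaller differences. Notch1 measured 12.84, 12.90 and 12.61 in Tal1-LMO2 tumours and 12.33 and 12.48 in Tal1 tumours (0.38 ± 0.82), and Notch3 11.41, 11.31 and 11.20 in Tal1-LMO2 tumours and 11.23 and 11.17 in Tal1 tumours (0.11 ± 0.59). Myc, a growth regulator downstream of Notch1, measured 11.51, 11.36 and 10.95 in Tal1-LMO2 tumours and 10.89 and 10.72 in Tal1 tumours (0.47 ± 0.37, adjusted p = 0.992). Hes5, a relative of Hes1, was on the other side at 8.48, 8.70 and 8.71 in Tal1-LMO2 tumours and 9.01 and 8.99 in Tal1 tumours (−0.37 ± 0.17, adjusted p = 0.73). Ptcra, the pre-T-cell receptor alpha chain, varied more within the groups than between them, at 10.10, 8.15 and 10.82 in Tal1-LMO2 tumours and 10.34 and 9.46 in Tal1 tumours. In the fit with the beta-actin ratio as a term the median of the 13 Notch genes was 0.10 and Hes1 was not called.

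**Figure D4:**
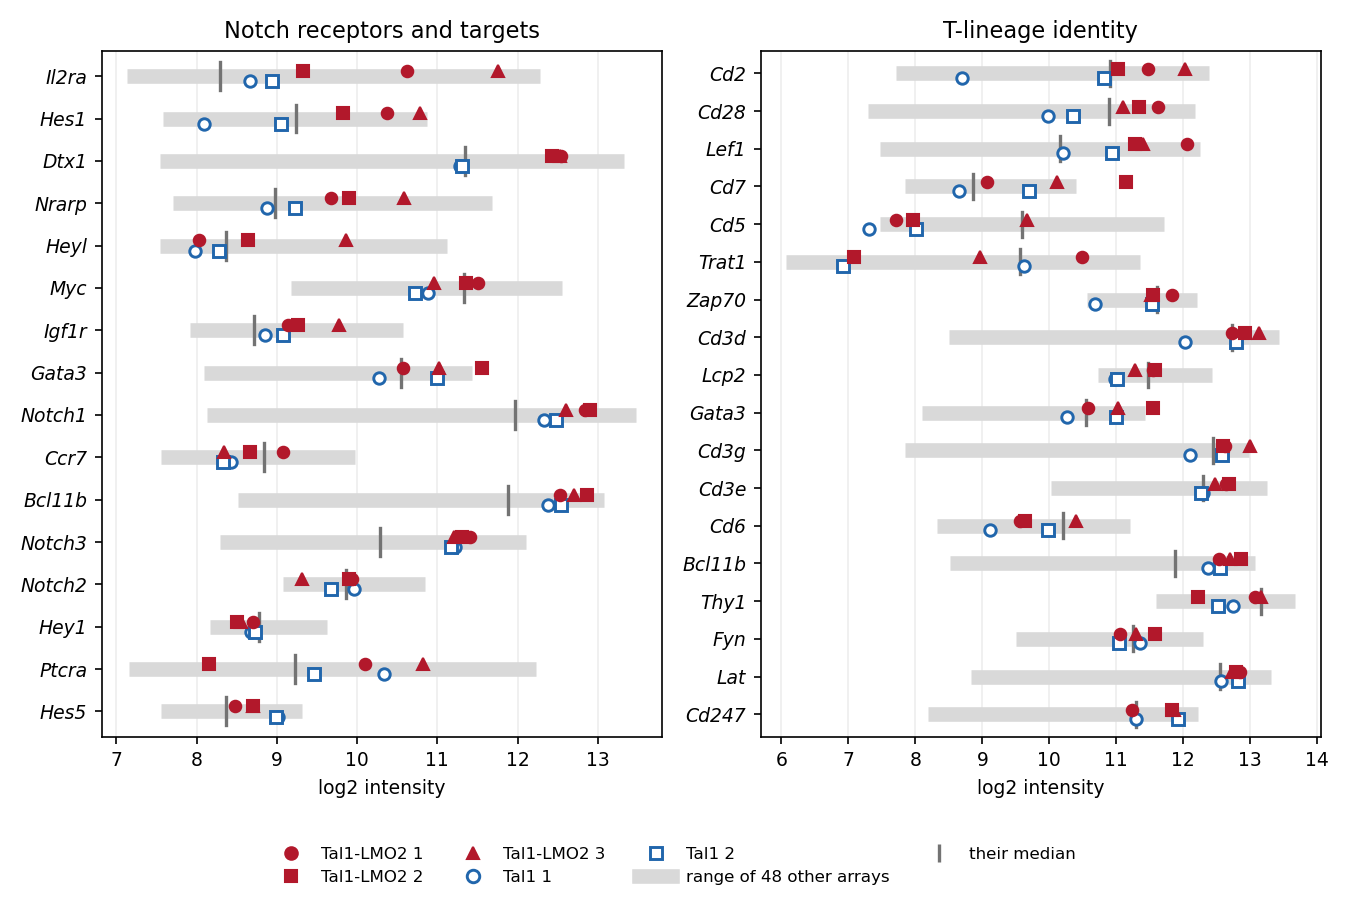
Log2 intensity (horizontal axes) of the Notch receptors and targets (left) and the T-lineage markers (right) in Tal1-LMO2 arrays (filled red, upper) and Tal1 arrays (open blue, lower), ordered by difference; grey bars span the other 48 arrays and ticks mark their median. Dtx1 shows 2 tight groups at 12.43 to 12.54 and 11.28 to 11.31, while Trat1 and Ptcra overlap.

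Slc2a3, the glucose transporter GLUT3, had the largest positive difference among the called genes. It measured 11.54, 11.34 and 11.00 in Tal1-LMO2 tumours and 7.20 and 9.54 in Tal1 tumours (2.93 ± 0.61, 7.60-fold higher, adjusted p = 0.0104). The Tal1 arrays stood far apart, and Tal1 replicate 1 lay below the lowest of the other 48 arrays (8.78). Its other probe sets gave 2.75, 0.60 and 0.14. Brd3, a reader of acetylated histones, measured 9.99, 10.24 and 9.85 in Tal1-LMO2 tumours and 8.55 and 9.08 in Tal1 tumours (1.21 ± 0.26, adjusted p = 0.0154). Here the Tal1-LMO2 tumours sat at the median of the other 48 arrays (10.04) and both Tal1 tumours below their lowest value (9.14). The other 2 Brd3 probe sets differed by 0.13 and 0.23. All 3 differences were smaller without Tal1 replicate 1, at 1.75 for Slc2a3, 1.28 for Hes1 and 0.95 for Brd3. Without Tal1-LMO2 replicate 3 none of the 3 was called, at 3.08 for Slc2a3, 1.53 for Hes1 and 1.30 for Brd3. For Slc2a3 and Brd3 that difference was no smaller than with all arrays. Without Tal1-LMO2 replicate 1, which leaves as many arrays, limma called both (adjusted p = 0.0457 and 0.0403) but not Hes1 (adjusted p = 0.0968). The calls thus depend on which array is left out.

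LMO2 acts in a complex, whose genes were read as a list. Of the 22 genes of the TAL1/LMO complex, its partners and its inhibitors, 13 passed the filter and none was called by limma, with a median of 0.28. Since 0.0416% and 0.458% of all genes tested were called higher and lower, a count of 0 among 13 does not set the list apart from the background. Lmo4, a relative of Lmo2, measured 11.52, 9.37 and 10.08 in Tal1-LMO2 tumours and 9.44 and 8.75 in Tal1 tumours (1.23 ± 0.69, adjusted p = 0.864). The E-protein genes differed in sign: Tcf3 had 0.39 ± 0.27, Tcf12 0.07 ± 0.38 and Tcf4 −0.58 ± 0.29. Tcf4 measured 9.78, 9.92 and 9.42 in Tal1-LMO2 tumours and 10.57 and 10.01 in Tal1 tumours, with no overlap.

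Ldb1, which holds the complex together, measured 10.69, 10.15 and 10.18 in Tal1-LMO2 tumours and 9.69 and 10.57 in Tal1 tumours (0.21 ± 0.27). Gata2 (−0.40 ± 0.15) was the 1 member at an unadjusted p under 0.05 (0.0151, adjusted p = 0.526), at 9.03, 8.43 and 8.85 in Tal1-LMO2 tumours and 9.21 and 9.13 in Tal1 tumours. Of all genes tested, 4.02% were lower at that unadjusted threshold. Gata3, the GATA factor of T cells, measured 10.57, 11.55 and 11.02 in Tal1-LMO2 tumours and 10.27 and 11.00 in Tal1 tumours. Runx1 (0.28 ± 0.23), its cofactor Cbfb (0.36 ± 0.19), Ssbp3 (0.43 ± 0.29), Ssbp2 (−0.66 ± 0.54), the corepressor Cbfa2t3 (0.14 ± 0.29) and the E-protein inhibitor Id2 (0.40 ± 0.62) made up the rest of those tested. Tal1, Lyl1, Tal2, Lmo1, Lmo2, Gata1, Runx3, Id1 and Id3 were below the filter. Lyl1, which LMO2 can use in place of TAL1, lay at 7.80, 7.83 and 7.84 in Tal1-LMO2 tumours and 8.04 and 8.0 in Tal1 tumours, where the highest of the other 48 arrays reached 11.55.

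**Figure D5:**
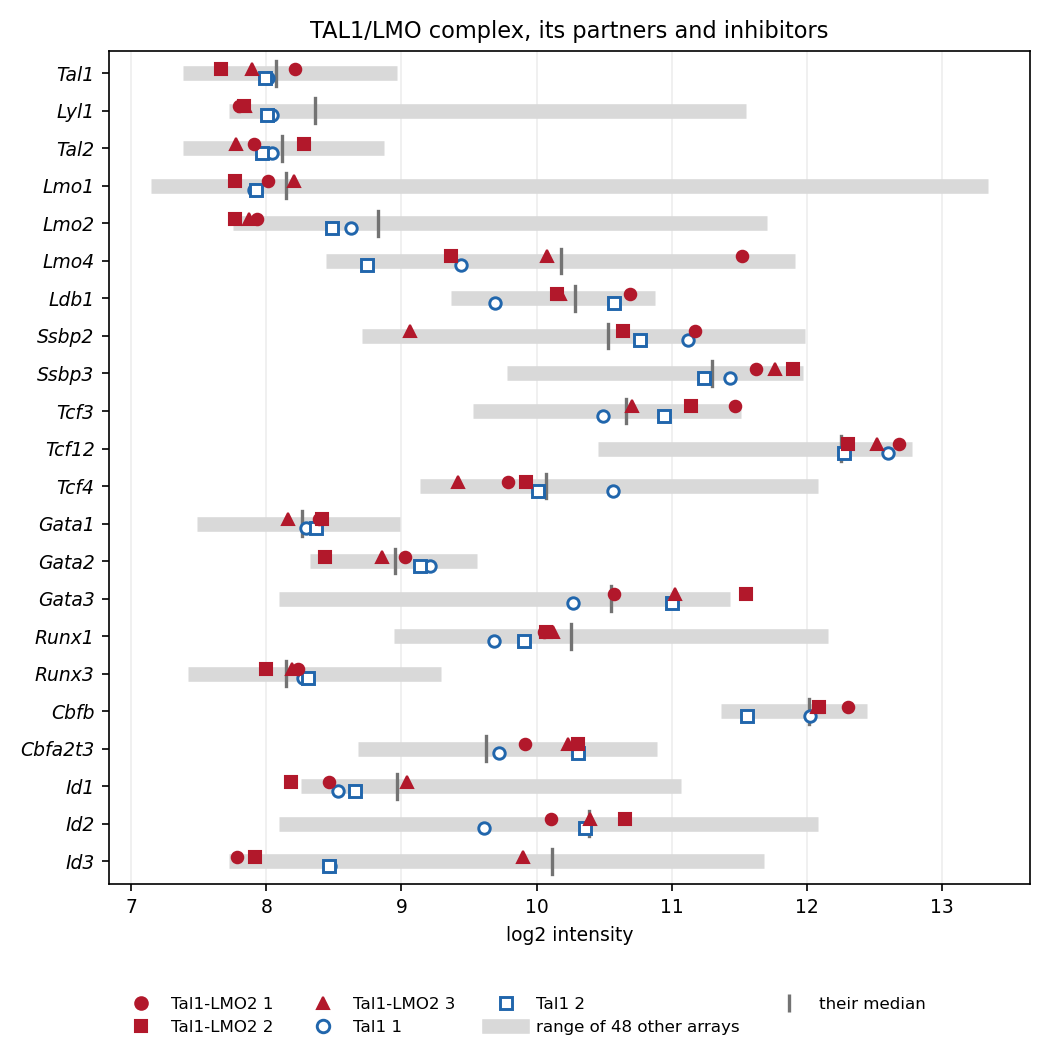
Log2 intensity (horizontal axis) of the 22 genes of the TAL1/LMO complex, its partners and its inhibitors in Tal1-LMO2 arrays (filled red, upper) and Tal1 arrays (open blue, lower); grey bars span the other 48 arrays and ticks mark their median. For Lmo2 the 3 red symbols, at 7.77 to 7.93, lie left of the blue ones at 8.48 and 8.63; for most other genes the groups overlap.

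The stem cell genes known to be switched on by LMO2 in mouse thymocytes were low in both groups. Of the 19 on the list, only Igf1r and Ccnd2 passed the filter, and neither was called by limma or had an unadjusted p under 0.05. Hhex, the homeobox gene best known from this programme, measured 7.64, 7.69 and 7.87 in Tal1-LMO2 tumours and 7.74 and 7.70 in Tal1 tumours, and Kit, the stem cell factor receptor, 8.05, 8.33 and 8.07 in Tal1-LMO2 tumours and 8.30 and 8.24 in Tal1 tumours. These values lie below the median of each array, and the highest of the other 48 arrays was 9.84 for Hhex and 10.57 for Kit. Ccnd2, a D-type cyclin, measured 8.78, 11.72 and 10.22 in Tal1-LMO2 tumours and 8.78 and 10.68 in Tal1 tumours.

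Targets of TAL1 known from human leukaemia gave no call by limma among 9 tested and 1 gene (Stat5a) at an unadjusted p under 0.05, with a median of 0.07. Over all genes tested, 0.0416% were called higher and 2.3% were higher at that unadjusted threshold, so these counts do not set the list apart. Trib2, a pseudokinase gene, measured 11.92, 11.86 and 11.94 in Tal1-LMO2 tumours and 10.43 and 10.76 in Tal1 tumours (1.31 ± 0.75, adjusted p = 0.882). The tight groups did not overlap, and on the 5 arrays alone the adjusted p was 0.0333. With Tal1-LMO2 replicate 2 left out of that fit, no gene of the list was called. Stat5a, which carries cytokine signals, measured 11.93, 11.02 and 11.04 in Tal1-LMO2 tumours and 10.44 and 10.23 in Tal1 tumours (1.0 ± 0.33, adjusted p = 0.251). Myb measured 12.85, 12.79 and 12.76 in Tal1-LMO2 tumours and 12.72 and 12.56 in Tal1 tumours, high in both.

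Thymocyte stage and growth gave no called gene other than Hes1. The 14 tested genes of the double-positive stage had a median of −0.03, and the 17 tested targets of E proteins −0.04, with Hes1 as the called one. Cd4 measured 9.93, 9.24 and 9.15 in Tal1-LMO2 tumours and 10.77 and 9.65 in Tal1 tumours (−0.77 ± 0.45, adjusted p = 0.892). Cd44, an adhesion receptor of early and activated T cells, split both groups: 10.86, 7.83 and 7.72 in Tal1-LMO2 tumours and 11.81 and 7.99 in Tal1 tumours. The 23 DNA replication genes had a median of 0.03, the 22 genes of mitosis −0.07 and the 20 of ribosome biogenesis 0.08. Cdkn2d, an inhibitor of the cyclin D kinases, measured 11.04, 11.34 and 11.35 in Tal1-LMO2 tumours and 9.99 and 10.67 in Tal1 tumours (0.91 ± 0.30, adjusted p = 0.244).

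Without Tal1-LMO2 replicate 2, 3 genes were higher and 31 lower (0.0416% and 0.43%). All 33 lower and 3 higher genes of the full comparison kept their sign, and 21 and 2 of them kept their call. Bgn (−3.67 ± 0.57, adjusted p = 0.000658), Sparc (−3.30), Dcn (−2.66), C1qc (−2.08) and C1qa (−2.08) were among those kept, as were Hes1 (2.01 ± 0.45, adjusted p = 0.0233) and Slc2a3 (2.90 ± 0.68, adjusted p = 0.0291). Brd3 (1.11, adjusted p = 0.0727), Ccn2 (−3.0, adjusted p = 0.096), Tsc22d1 (−2.25, adjusted p = 0.188), Mgp (−2.58, adjusted p = 0.0652), Igfbp7 (−2.04, adjusted p = 0.0822) and Cd68 (−1.64, adjusted p = 0.0724) were not. Among the genes called without replicate 2 but not with it were Lgals3, the macrophage lectin galectin-3 (−1.94 ± 0.37, adjusted p = 0.007), Abca1, a cholesterol exporter (−2.0 ± 0.47, adjusted p = 0.0291) and Grn, the lysosomal protein progranulin (−1.34 ± 0.33, adjusted p = 0.0488). The higher gene added was Atp8a2, a lipid flippase (2.96 ± 0.57, adjusted p = 0.007); these 4 were named after their values were seen. Leaving out Tal1-LMO2 replicate 3 removed more calls than leaving out replicate 2. Without replicate 3, 2 genes were lower (Bgn and Ms4a7) and none was higher by limma, with 147 genes higher at an unadjusted p under 0.05.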

How the data were processed

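The authors deposited 1 value per probe set and array, a normalized signal intensity on a linear scale, for 22690 probe sets and 53 arrays. Per the labels, total RNA was prepared with Trizol and labelled as biotin cRNA; how the signals were normalized is not stated in the sources used here. The intensities were converted to log2. Of the probe sets, 20380 carried 1 gene symbol in the platform table, 691 several, 64 were controls and 1555 were unnamed here; 20351 were matched by Entrez identifier. The probe set of highest mean over all arrays stood for each of 12393 genes (4956 had several). A gene was tested if it exceeded the array median in 2 or more of the 5 compared arrays (7206 genes). limma 3.58.1 in R 4.3.3 (lmFit and eBayes, two-sided) was fitted to all 53 arrays with 1 coefficient for each of 15 backgrounds, and p-values were adjusted over the 7206 genes by Benjamini-Hochberg (threshold 0.05). The test was checked on simulated data, where it recovered large changes more often than small ones and also made some false calls. Array quality was compared by exact permutation over 10 splits of the arrays (smallest two-sided p 0.1).

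Named genes were the 12 highest and 12 lowest differences among called genes whose groups do not overlap and that keep their sign without any 1 array, the genes of the TAL1/LMO complex, and up to 4 called members of each list; list members without a call are given as illustrations. The members and the lists were chosen with earlier results of these data known. Tal1 and Lmo2, which lie below the filter, were tested over all 20380 named probe sets. Alternatives were other filters, probe set rules, normalizations and eBayes settings, the beta-actin ratio as a covariate, fewer arrays, and a replicate block. Python 3.11.15, NumPy 2.4.6, pandas 2.3.3 and Matplotlib 3.10.9 were used for tables and plots.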

Additional observations from a re-analysis of the deposited data

Results flagged for a closer look

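In Tal1-LMO2 replicate 2, the bacterial control probe set AFFX-r2-Bs-dap-3 had a log2 level of 8.66, where the other 52 arrays reached 7.60 at most and had a median of 6.90. The control AFFX-TrpnX-5 had 8.31 on that array, against a highest value of 7.83 and a median of 7.58 on the other 52. These 2 of 45 bacterial control probe sets belong to no comparison of genes and stood above every other array; the middle probe set of the same dap transcript was at 7.54, within the span of the other arrays. The calls without this array are given with the results.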

How the results depend on the processing

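No called gene changed sign under the alternatives in which it was tested, but the number of calls depends on single arrays. Leaving out 1 of the 5 arrays gave 0 to 14 higher and 2 to 31 lower genes, against 3 and 33: without Tal1-LMO2 replicate 1 there were 5 and 23, without replicate 3 there were 0 and 2, without Tal1 replicate 1 there were 1 and 9, and without Tal1 replicate 2 there were 14 and 12. Where 1 Tal1 array remains, limma assumes that it varies like the other groups. With a replicate block, 1 gene was higher (Slc2a3) and 4 were lower (Bgn, Ms4a7, Rab34 and Rit1); the numbers are not known to pair the samples (correlation of deviations 0.23 and 0.29 for the 2 same-numbered pairs), and Tal1-LMO2 replicate 3 has no partner. The lower genes numbered 63 without the TLX1, TLX1-RUNX and p53 knockout arrays, 20 with quantile normalization, 20 with the mean of probe sets and 17 with a stricter filter (3908 genes tested). On the 5 arrays alone, 28 genes were lower, 10 of them shared with the 33, and 4 higher, none of them among the 3. On those arrays without Tal1-LMO2 replicate 2, an alternative chosen after seeing the data, 16 were lower. The median of the stromal list was −0.72 with no filter, −0.81 with a filter on at least 3 of 53 arrays and −2.61 with the stricter one, against −1.60; that of the myeloid list was −1.81 with the stricter one, against −0.95. The members tested differ between these filters. Signals near the low end of the scale limit what can be seen for genes below the filter.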

Other observations

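A few members of the other lists varied widely. Alas2, the first enzyme of heme synthesis in red cells, measured 7.94, 9.99 and 11.25 in Tal1-LMO2 tumours and 7.88 and 8.24 in Tal1 tumours, so the spread lay within the Tal1-LMO2 group. Klf2, a transcription factor of mature T cells, measured 10.39, 10.86 and 11.48 in Tal1-LMO2 tumours and 9.46 and 9.51 in Tal1 tumours, with a difference of 1.43 ± 0.57 that did not pass (adjusted p = 0.531). Usp18, an interferon-induced protease, measured 7.91, 8.43 and 7.53 in Tal1-LMO2 tumours and 9.71 and 9.97 in Tal1 tumours (−1.88 ± 0.73, adjusted p = 0.481). The 11 interferon-stimulated genes tested had a median of −0.29, and Irf1 measured 10.51, 11.18 and 10.96 in Tal1-LMO2 tumours and 10.51 and 11.18 in Tal1 tumours. These genes were named after their values were seen.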
